A study of Homo sapiens with 16 samples.

Results

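The regions described here carried an H3K27ac peak in every library of a lymphoma cell line, whether CARM1 was inhibited or not, stayed narrow and lay at the end of a gene. The 4 H3K27ac peak lists (2 with the inhibitor, 2 with DMSO) were merged where peaks overlapped or touched. A merged region was taken when all 4 lists had a peak in it, when it was under 5000 bp wide and when it lay within 2 kb of either end of a protein-coding gene. Of 10288 merged regions, 1878 had a peak in all 4 lists, 1479 of these were under 5000 bp wide, and 801 of those lay at a gene end. The 801 members touched the ends of 1010 of 19974 protein-coding genes (5.06%). The members were chosen by H3K27ac presence and width, measured in these same libraries, so H3K27ac values are given as a description without a test.

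Acetylation of histone H3 at lysine 27 is placed mainly by the acetyltransferases CREBBP and EP300 and marks active promoters and enhancers. H3K4me3 is placed by SET1 and MLL complexes around the start sites of active genes, and H3K4me1 is typical of enhancers and of the flanks of promoters. CARM1 is an arginine methyltransferase that methylates histone H3 and coactivators, EP300 and CREBBP among them.

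The 3 marks were mapped by chromatin immunoprecipitation and sequencing in Toledo cells, an established line of diffuse large B-cell lymphoma, in 2 groups. Cells of the first received the CARM1 inhibitor TP-064 at 5 uM for 6 days, and cells of the second received DMSO for the same time. Each mark and group had 2 libraries, 12 in all, and 4 input libraries were not used here. The lists give the chromosome, start and end of each peak and no height, so read depth is unknown and a peak missing from a list may lie under the caller's threshold. By the labels, lane 4 held the inhibitor libraries and lane 3 the DMSO libraries, and effects of lane and of treatment cannot be told apart. All cells came from 1 line, and nothing in the labels says that libraries came from separate cultures. The p-values therefore reflect the spread of these libraries alone, and that spread may be technical.

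The H3K27ac lists held 4771 and 4595 peaks with the inhibitor, against 7885 and 4016 with DMSO. The H3K4me3 lists held 10317 and 10048 peaks with the inhibitor, against 12476 and 11481 with DMSO. The H3K4me1 lists held 4094 and 4242 peaks with the inhibitor, against 25058 and 9673 with DMSO. DMSO replicate 1 stood apart from the other libraries by its long H3K27ac and H3K4me1 lists. Of 9 B-cell marker genes, 7 and 7 had an H3K27ac peak at a gene end with the inhibitor, against 9 and 8 with DMSO. The counts were 1 and 1 against 1 and 0 for 9 T and NK cell markers, 0 in every library for 7 myeloid markers, and 0 and 0 against 1 and 0 for 6 epithelial and stromal markers.

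Most members lay at start sites. A start site lay within 2 kb of 658 members, 38 lay at the 3' end of their genes only, and for 105 the start was not listed in the promoter table used. Starts on both strands lay inside 98 members, and 584 members touched the ends of 1 gene, 201 of 2 genes and 16 of 3 genes.

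The promoters printed next show this range. Each is the stretch of 250 bases before a RefSeq start site (GRCh38.p14, read on the gene's own strand), and the capitals mark 1 motif found by search on both strands. HNRNPM (chr19:8444725-8444974, plus strand), an RNA-binding splicing regulator, had the shortest H3K27ac of all members, and its capitals mark an E box, CACGTG. H2AC6 (chr6:26123922-26124171, plus strand) encodes a replication-dependent histone H2A and shares its member region with H2BC4, and its capitals mark the octamer ATGCAAAT. E2F1 (chr20:33686386-33686635, minus strand), a transcription factor of the cell cycle, had one of the 10 largest falls of H3K4me3 length, and its capitals mark an E2F site, TTTGGCGC. TNFAIP3 (chr6:137867009-137867258, plus strand), an inhibitor of NF-kB signalling, had longer H3K4me3 with the inhibitor, and its capitals mark a match to the NF-kB motif on the other strand. FCRLA (chr1:161706979-161707228, plus strand), a B-cell protein related to Fc receptors, lost its H3K4me1 peaks, and its capitals mark the reverse complement of the PU.1 core GAGGAAGT. BLNK (chr10:96271570-96271819, minus strand), an adaptor of B-cell receptor signalling, had longer H3K4me3 with the inhibitor too, and its capitals mark a CCAAT box, CCAAT.
HNRNPM: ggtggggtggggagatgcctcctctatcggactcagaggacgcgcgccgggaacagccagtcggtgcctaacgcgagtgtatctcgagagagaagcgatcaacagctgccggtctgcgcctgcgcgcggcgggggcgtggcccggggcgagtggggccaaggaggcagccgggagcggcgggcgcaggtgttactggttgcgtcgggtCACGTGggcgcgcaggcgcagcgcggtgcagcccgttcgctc
H2AC6: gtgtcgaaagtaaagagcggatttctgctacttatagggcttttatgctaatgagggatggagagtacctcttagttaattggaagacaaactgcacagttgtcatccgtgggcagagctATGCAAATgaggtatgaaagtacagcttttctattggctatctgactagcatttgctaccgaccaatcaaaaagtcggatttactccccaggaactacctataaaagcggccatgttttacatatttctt
E2F1: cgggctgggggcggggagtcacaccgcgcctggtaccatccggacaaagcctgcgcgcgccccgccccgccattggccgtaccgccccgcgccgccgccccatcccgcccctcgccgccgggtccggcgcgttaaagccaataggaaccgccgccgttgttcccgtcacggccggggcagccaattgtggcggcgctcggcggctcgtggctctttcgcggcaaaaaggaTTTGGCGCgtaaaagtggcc
TNFAIP3: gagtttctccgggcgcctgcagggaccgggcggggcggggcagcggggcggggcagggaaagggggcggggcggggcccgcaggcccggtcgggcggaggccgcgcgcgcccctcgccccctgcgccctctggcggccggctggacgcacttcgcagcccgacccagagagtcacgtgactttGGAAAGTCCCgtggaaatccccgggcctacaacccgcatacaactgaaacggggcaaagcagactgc
FCRLA: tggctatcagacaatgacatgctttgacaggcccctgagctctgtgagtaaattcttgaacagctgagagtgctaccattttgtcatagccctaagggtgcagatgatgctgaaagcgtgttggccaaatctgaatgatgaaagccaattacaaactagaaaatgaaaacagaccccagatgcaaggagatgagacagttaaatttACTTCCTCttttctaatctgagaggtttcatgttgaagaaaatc
BLNK: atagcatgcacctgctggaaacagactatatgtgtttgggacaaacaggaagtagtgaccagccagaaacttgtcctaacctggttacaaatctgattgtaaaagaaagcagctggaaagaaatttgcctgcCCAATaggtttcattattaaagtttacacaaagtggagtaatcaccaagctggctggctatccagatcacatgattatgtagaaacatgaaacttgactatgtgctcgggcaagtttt

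In the 300-base promoters of the table (250 bases before the start to 50 after it), GC content and CpG density were high at members. The table lists 996 starts of 733 genes inside members, out of 22132 starts of 15812 genes, and 639 starts of 497 genes inside lost gene-end regions, where both DMSO lists and neither inhibitor list had an H3K27ac peak. The median GC content was 67.3% at members, against 66.3% at lost regions and 62.3% over all starts. The median ratio of observed to expected CpG was 0.877 at members, against 0.897 at lost regions and 0.738 over all starts. The GC box GGGCGG stood in 73.0% of member promoters, 73.1% of lost and 56.3% of all promoters, and the TATA box TATAAA in 5.02%, 5.95% and 9.46% of the same sets. The ETS motif CCGGAAG stood in 17% of member promoters, against 22.7% of lost and 12.8% of all promoters. The YY1 motif AAGATGGCG stood in 4.72% of member promoters, against 5.63% and 2.42%. In GC content, CpG ratio, GC box and TATA box, members lay closer to lost regions than to all promoters, while in the ETS motif they lay between these sets.

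The motifs shown in the sequences differed in how common they were. The E box stood in 9.44% of member promoters and 8.34% of all promoters, the octamer in 1.61% and 1.65%, the PU.1 core in 2.41% and 2.63%, and CCAAT in 32.8% and 34.6%. The E2F motif stood in 1.61% of member promoters, against 2.19% of lost and 0.818% of all promoters. The NF-kB motif stood in 5 of 996 member promoters (0.502%), in 0 of 639 lost and in 42 of 22132 promoters in all (0.19%). Motifs were searched on both strands. A match is a string of letters and no shown binding site.

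Width and H3K27ac length of the members varied by several fold. The merged width had a median of 2484 bp (quartiles 2022 and 3211 bp), against 1660 bp for the 545 lost gene-end regions, 3355 bp for the 678 narrow regions kept away from gene ends and 6954 bp for the 145 wider regions kept at gene ends. Near the limit, members just inside were CCNG2, a cyclin G gene (4971 bp), HNRNPU, an RNA-binding nuclear matrix protein (4990 bp), and MYC, the growth-driving transcription factor (4992 bp). Just outside were regions at MPZL1 (5000 bp), at the histone genes H2BC21, H2AC20 and H2AC21 (5024 bp) and at RGS16, a regulator of G protein signalling (5042 bp). At the median member, H3K27ac peaks covered 1779 and 1729 bp with the inhibitor, against 2363 and 1764 bp with DMSO. DMSO replicate 1 was the long one, and the other 3 libraries lay close together.

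Each inhibitor library had shorter H3K27ac than each DMSO library at 285 members (35.6%), longer at 39, and overlapped between the groups at 477. Over all 1878 regions in the 4 lists, 28.0% were shorter and 8.79% longer, and nothing is read from this since the same lists chose the members. The median log2 difference of covered length, inhibitor minus DMSO, was -0.20. The longest H3K27ac lay at BCOR, a corepressor that binds BCL6, with 4724 and 4510 bp with the inhibitor, against 4770 and 4326 bp with DMSO. The shortest lay at HNRNPM, with 972 and 833 bp with the inhibitor, against 1042 and 901 bp with DMSO. At both genes the ranges of the groups overlapped. Other long members lay at RIC1, at CBFA2T3, a corepressor of blood cells, at TOX2 and at RNF213. Other short members lay at POLG, the mitochondrial DNA polymerase, MTHFD2, an enzyme of mitochondrial folate metabolism, CDIPT, a phosphatidylinositol synthase, and KDM3B, a histone demethylase.

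**Figure D1:**
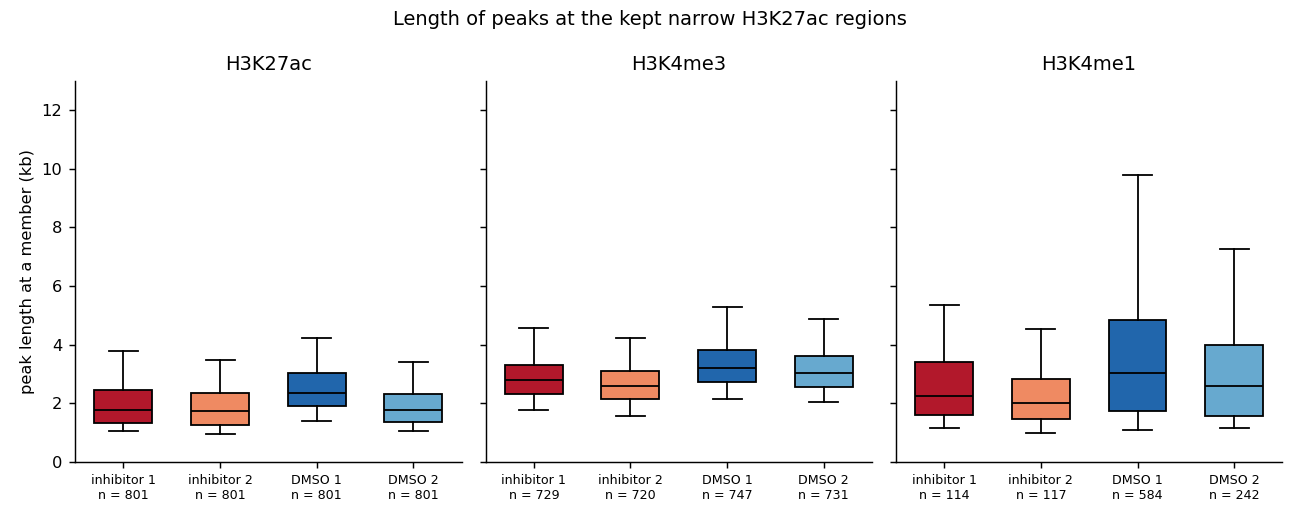
Length in kb of the peaks of each mark at the members that had such a peak, by library, inhibitor left of DMSO. For H3K4me3 all peaks of the merged sites that touch the member count. For H3K4me1 only the library's own peaks that overlap the member count. Boxes show quartiles and medians, whiskers the 5th and 95th percentiles, and n the members with a peak. H3K4me3 medians are 2800 and 2569 bp with the inhibitor and 3191 and 3021 bp with DMSO, while the H3K27ac box of DMSO replicate 1 lies above the other H3K27ac boxes.

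Nearly all members carried H3K4me3, the promoter mark that the choice did not use. The share with an H3K4me3 peak was 91.0% and 89.9% with the inhibitor, against 93.3% and 91.3% with DMSO. The mean was 90.4% ± 0.8 with the inhibitor and 92.3% ± 1.4 with DMSO (SD, n = 2 each), a difference of -1.81 percentage points (two-sided exact permutation test, p = 0.333). With 2 libraries a group, 0.333 is the smallest p this test can give. The difference was -0.81 without DMSO replicate 1 and -2.81 without DMSO replicate 2, and the H3K4me3 lists were longer with DMSO. Over the other settings it ranged from -5.02 in the widest 0.5 of each list to -0.74 among members under 3000 bp wide. H3K4me3 was present in all 4 lists at 718 members and absent from all at 54.

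The peak was lost, present with DMSO in both libraries and with the inhibitor in neither, at 5 of 731 members with H3K4me3 in both DMSO libraries (0.684%), against 3.68% of all H3K27ac regions with it and 4.23% of those that are no member. The share was 2.11% at lost gene-end regions and 5.08% at wider regions kept at gene ends. At narrow regions kept away from gene ends it was 9.35%. The 5 members lay at RNF213, a ubiquitin ligase linked to moyamoya disease, ZC3H12D, an RNA-degrading protein of lymphocytes, REM2, a GTPase, FCHO1, an endocytosis adaptor, and SIPA1, a GTPase-activating protein for Rap1. Their DMSO peaks were short. RNF213 had 932 and 974 bp of H3K4me3 with DMSO and SIPA1 had 2259 and 1565 bp, where the inhibitor lists had none. SIPA1 also touches the member shared with RELA, where H3K4me3 was present in all 4 lists.

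H3K4me3 was narrower with the inhibitor at most members. At the 719 members whose H3K4me3 site had a peak in all 4 lists, the mean log2 length in bp was 11.46 and 11.33 with the inhibitor, against 11.69 and 11.59 with DMSO. Both inhibitor libraries lay below both DMSO libraries, and the difference was -0.25 (two-sided exact permutation test, p = 0.333, the smallest possible). Leaving out 1 library at a time gave -0.31 to -0.19. The site was shorter in each inhibitor library than in each DMSO library at 554 of 719 members (77.1%), against 81.9% of all 9477 H3K4me3 sites in the 4 lists, and longer at 12 (1.67%), against 0.633%. The median log2 difference was -0.22 at members.

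The 7429 other H3K4me3 sites at gene ends, which overlapped no member, narrowed by about as much. Their mean log2 length was 10.94 and 10.81 with the inhibitor, against 11.22 and 11.12 with DMSO, and their median log2 difference was -0.27. Member sites were longer than these by 0.52 and 0.52 on the log2 scale with the inhibitor, and by 0.48 and 0.47 with DMSO. The gap was thus wider with the inhibitor by 0.04 (two-sided exact permutation test, p = 0.333), and it lay between 0.04 and 0.05 when each library was left out in turn. Of the other sites, 82.9% were shorter in both inhibitor libraries. A member's length sums every H3K4me3 site that touched it, and a site touching several members counted for each. The other sites were each counted once. A longer site is also more likely to touch a member, and its part in the gap was not tested.

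**Figure D2:**
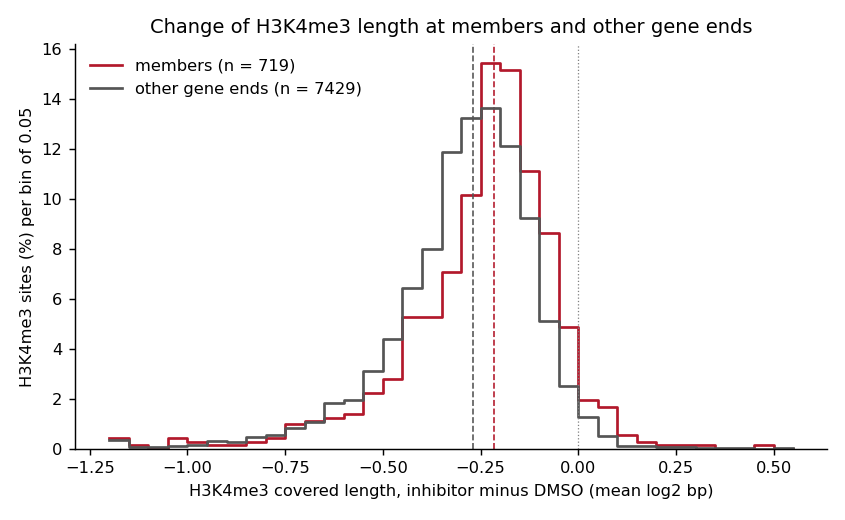
Distribution of the change of H3K4me3 length (mean log2 bp, inhibitor minus DMSO) at 719 member sites and 7429 other sites at gene ends, as the percent of sites per bin. Dashed lines mark the medians, -0.22 for members and -0.27 for other gene ends, and values beyond the axis are counted in the end bins.

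The largest fall of H3K4me3 length at a member lay at ANXA2R, and SP1 and E2F1 were among the 10 largest. ANXA2R, a receptor for annexin A2, had 2259 and 1264 bp of H3K4me3 with the inhibitor, against 5922 and 4711 bp with DMSO (log2 difference -1.64). SP1, the transcription factor that binds GC boxes, had 1387 and 1481 bp with the inhibitor, against 3076 and 2751 bp with DMSO (-1.02). E2F1 had 1715 and 1257 bp with the inhibitor, against 2969 and 2748 bp with DMSO (-0.96). At each of the 3 genes the groups did not overlap. The other falls of this size lay at ARHGAP4 and NAA10, LIMD1, RASGRP2 and PYGM, the region shared by IL4I1, NUP62 and ATF5, ATP13A1, GPD1 and COX14, and SH2D3C, with log2 differences between -1.49 and -0.93.

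At 12 members H3K4me3 was longer in both inhibitor libraries, BLNK, TNFAIP3 and CBFA2T3 among them. BLNK had 3934 and 3871 bp of H3K4me3 with the inhibitor, against 3269 and 3162 bp with DMSO (log2 difference 0.28). TNFAIP3 had 5882 and 5634 bp with the inhibitor, against 5488 and 4811 bp with DMSO (0.16). CBFA2T3 had 3209 and 2636 bp with the inhibitor, against 2431 and 1775 bp with DMSO (0.49). The groups did not overlap at these 3 genes. PPM1H, a phosphatase, had a log2 difference of 0.31, MAN1A1, a mannosidase of the Golgi, 0.21, NIN, a centrosome protein, 0.17, KDM5A, a demethylase that removes H3K4me3, 0.14, and CD47, a surface protein that inhibits phagocytosis, 0.12. MSI2, an RNA-binding protein, had a log2 difference of 0.13 and TASOR2 of 0.12, but the groups overlapped at both and they are not among the 12.

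H3K4me1 at members was sparse with the inhibitor. The share of members with an H3K4me1 peak was 14.2% and 14.6% with the inhibitor, against 72.9% and 30.2% with DMSO. The mean was 14.4% ± 0.3 with the inhibitor and 51.6% ± 30.2 with DMSO (SD, n = 2 each), a difference of -37.1 percentage points (two-sided exact permutation test, p = 0.333, the smallest possible). The DMSO libraries differed from each other by more than DMSO replicate 2 did from the inhibitor libraries, and the difference was -15.8 without DMSO replicate 1 and -58.5 without DMSO replicate 2. When every H3K4me1 and H3K27ac list was cut to its widest peaks, as many as in the shortest list of the mark, the share was 18.2% and 18.6% with the inhibitor, against 26.2% and 21.3% with DMSO, a difference of -5.32. With at least 0.5 of the region required to be covered, the difference was -18.2.

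By state, 70 members had H3K4me1 in all 4 lists, 113 in both DMSO lists only, 317 in DMSO replicate 1 only, 1 in both inhibitor lists only, 211 in none and 89 in another combination. Of the 239 members with H3K4me1 in both DMSO lists, 113 had none in either inhibitor list (47.3%), against 38.9% of all H3K27ac regions with it and 38.2% of those that are no member. The share was higher at lost gene-end regions (54.9%) than at members. It was 31.7% at narrow regions kept away from gene ends and 20.4% at wider regions kept at gene ends. In lists of equal length 20 members had H3K4me1 in both DMSO lists only, and without DMSO replicate 2 the number was 430. Long peaks were among those lost. SASH3, an adaptor of lymphocyte signalling, had no H3K4me1 peak with the inhibitor, against peaks of 19766 and 9061 bp with DMSO. BTG2, an antiproliferative gene, had none with the inhibitor, against 10802 and 7669 bp with DMSO. PARP1, an enzyme of DNA repair, had none with the inhibitor, against 7472 and 5186 bp with DMSO.

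Where H3K4me1 stayed in all 4 lists, its peaks were shorter with the inhibitor in most cases. Both inhibitor libraries had shorter peaks than both DMSO libraries at 60 of the 70 members (85.7%), against 80.9% of all H3K27ac regions with H3K4me1 in all 4 lists, and 0 were longer, against 0.861%. The median log2 difference was -1.02. MCL1, a survival protein of the BCL2 family, had 1954 and 2118 bp of H3K4me1 with the inhibitor, against 19855 and 18228 bp with DMSO (log2 difference -3.23). CCR7, a chemokine receptor, had 4084 and 2829 bp with the inhibitor, against 10751 and 11848 bp with DMSO (-1.73). The region of PACS1 and KLC2 kept its H3K4me1 length, with 6551 and 6003 bp with the inhibitor, against 6800 and 5992 bp with DMSO (-0.03), and the groups overlapped there. At MCL1 the H3K27ac length was 2804 and 2701 bp with the inhibitor, against 2882 and 2486 bp with DMSO, so that the groups overlapped for H3K27ac at the same site.

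Members with H3K4me1 in all 4 lists had longer H3K27ac. The median of the mean H3K27ac length was 2747 bp at these 70 members, 2104 bp at the 113 with H3K4me1 in both DMSO lists only, 1825 bp at the 317 with it in DMSO replicate 1 only and 1593 bp at the 211 with none. A longer region is also more likely to touch a peak, and its part in this order was not tested.

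**Figure D3:**
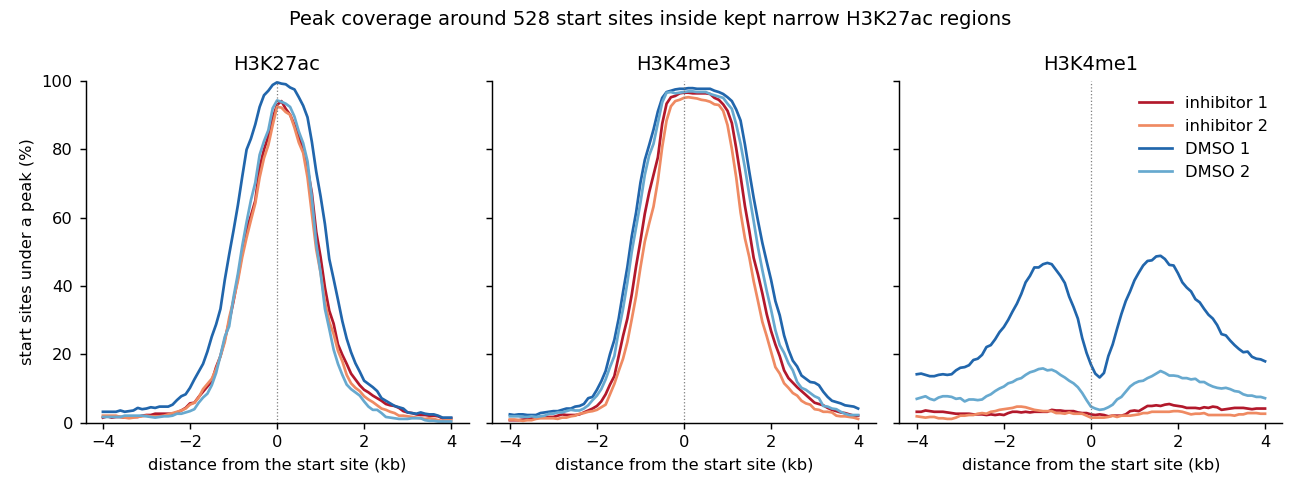
Percent of 528 start sites covered by a peak of each mark against the distance in kb from the start site (negative values are upstream), 1 line per library. H3K27ac peaks at the start, H3K4me3 extends further downstream than upstream, and H3K4me1 in the DMSO libraries forms shoulders on both sides with a dip at the start.

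Coverage of the start site was measured for the 528 members with starts on 1 strand, taking the start nearest the region's centre. These starts lie inside the members, so their H3K27ac coverage and distance to the centre follow in part from how the members were chosen and are a description. H3K27ac covered the start in 93.0% and 92.4% of them with the inhibitor, against 99.6% and 94.3% with DMSO. H3K4me3 covered the start in 96.6% and 95.1% with the inhibitor, against 97.7% and 96.8% with DMSO. The member's centre lay a median of 61.25 bp downstream of the start, and downstream of it in 297 of 528 (56.25%).

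H3K4me3 coverage differed more at its edges than at the start. At 1000 bp upstream it was 53.2% and 45.5% with the inhibitor, against 70.3% and 64.4% with DMSO. At 2000 bp downstream it was 26.9% and 20.8% with the inhibitor, against 41.9% and 33.1% with DMSO. At both edges the inhibitor libraries lay below the DMSO libraries. The same distances were read at 5888 other starts within H3K4me3 sites of all 4 lists that overlap no member. Coverage 1000 bp upstream of these was 25.2% and 19.4% with the inhibitor, against 44.3% and 37.4% with DMSO. Their coverage 2000 bp downstream was 5.163% and 3.804% with the inhibitor, against 10.24% and 7.626% with DMSO. Coverage 1000 bp downstream was 66.7% and 56.3% with the inhibitor, against 87.4% and 81.4% with DMSO. Members had 91.3% and 87.1% there, against 95.3% and 93.4%. The treatments thus lay closer together at members 1000 bp downstream, and further apart at members 2000 bp downstream. Member sites were longer, so 1 distance does not mark the same part of the site in both sets. Differences between members and other starts were not tested.

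H3K4me1 avoided the start itself. It covered the start in 2.46% and 1.52% of the 528 members with the inhibitor, against 17% and 4.73% with DMSO. At 1000 bp upstream it covered 3.22% and 3.41% with the inhibitor, against 46.8% and 15.3% with DMSO. At 1000 bp downstream it covered 3.60% and 2.27% with the inhibitor, against 41.7% and 11.6% with DMSO. The dip at the start was seen in both DMSO libraries, and in the inhibitor libraries the highest coverage within 4 kb was 5.49% and 4.73%.

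Measured over base pairs, 80.3% and 77.0% of the H3K27ac length at members lay under H3K4me3 with the inhibitor, against 84.5% and 84.8% with DMSO. Under H3K4me1 lay 9.41% and 9.12% with the inhibitor, against 41.5% and 17.4% with DMSO.

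Members at 3' ends differed in their marks from those at starts. At the 38 members at a 3' end only, H3K4me3 was present in 18.4% and 15.8% with the inhibitor, against 31.6% and 18.4% with DMSO, and H3K4me1 in 63.2% and 71.1%, against 97.4% and 92.1%. At the 658 members at starts, H3K4me3 was present in 96.2% and 95.1% with the inhibitor, against 97.6% and 96.5% with DMSO, and H3K4me1 in 9.42% and 9.73%, against 70.5% and 24.6%. Of the 54 members without H3K4me3 in any list, 26 lay at a 3' end only, 16 at a start and 12 where the start was not listed, and 26 had H3K4me1 in all 4 lists.

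The longest members without H3K4me3 in any list lay at C2CD2, at ALG6 and ITGB3BP, at TFAP2C, at PACS1 and KLC2, and at PRKRIP1. The region at TFAP2C, a transcription factor of epithelial and germ cells, had 3792 and 4027 bp of H3K27ac with the inhibitor, against 4426 and 2792 bp with DMSO. Its H3K4me1 peaks were 3083 and 2453 bp long with the inhibitor, against 7618 and 7178 bp with DMSO. The region at PRKRIP1 had 3174 and 3684 bp of H3K4me1 with the inhibitor, against 10014 and 6430 bp with DMSO. At both genes H3K4me1 was shorter in both inhibitor libraries, while the H3K27ac groups overlapped at TFAP2C.

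With the width limit of 5000 bp, members had slightly less H3K4me3 and more H3K4me1 in every library than the gene-end regions that lost H3K27ac. Compared with the 545 lost gene-end regions, the H3K4me3 share of members differed by -2.57 and -3.14 percentage points with the inhibitor, and by -2.52 and -4.34 with DMSO. The mean difference was -3.14 (two-sided exact sign-flip permutation test over the 4 libraries, p = 0.125, the smallest it can give), and it turned to 2.01 among members under 3000 bp wide. It was -5.70 with 0.5 of the region covered, -5.11 with a width limit of 10000 bp and -1.64 with start sites only. The H3K4me1 share of members was higher than at lost regions by 7.81 and 7.08 percentage points with the inhibitor, and by 15.8 and 12.6 with DMSO. The mean was 10.8 (exact sign-flip permutation test, p = 0.125). Lost regions were narrower, and in windows of equal size around the region's centre the mean was 7.40, in lists of equal length 4.65. It was 5.27 with 0.5 of the region covered. Among members under 3000 bp wide it was 3.58 (exact sign-flip permutation test, p = 0.25), and the sign turned in inhibitor replicate 2 (-0.17).

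Compared with the 678 narrow regions kept away from gene ends, members had H3K4me3 more often and H3K4me1 less often. The H3K4me3 share was higher by 71.4 and 72.8 percentage points with the inhibitor, and by 68.3 and 70.8 with DMSO, with a mean of 70.8 (exact sign-flip permutation test, p = 0.125). The H3K4me1 differences were -27.2 and -25.1 percentage points with the inhibitor, and -20.3 and -40.9 with DMSO, with a mean of -28.4 (exact sign-flip permutation test, p = 0.125). All 4 libraries had the same sign in each of these comparisons. The sets were chosen by their distance to gene ends, and H3K4me3 lies around start sites. The H3K4me3 difference is therefore mainly a check of the gene-end rule, and position bears on H3K4me1 too. Adjusted over the 8 permutation tests by Benjamini-Hochberg, the p-values were 0.25 and 0.333.

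**Figure D4:**
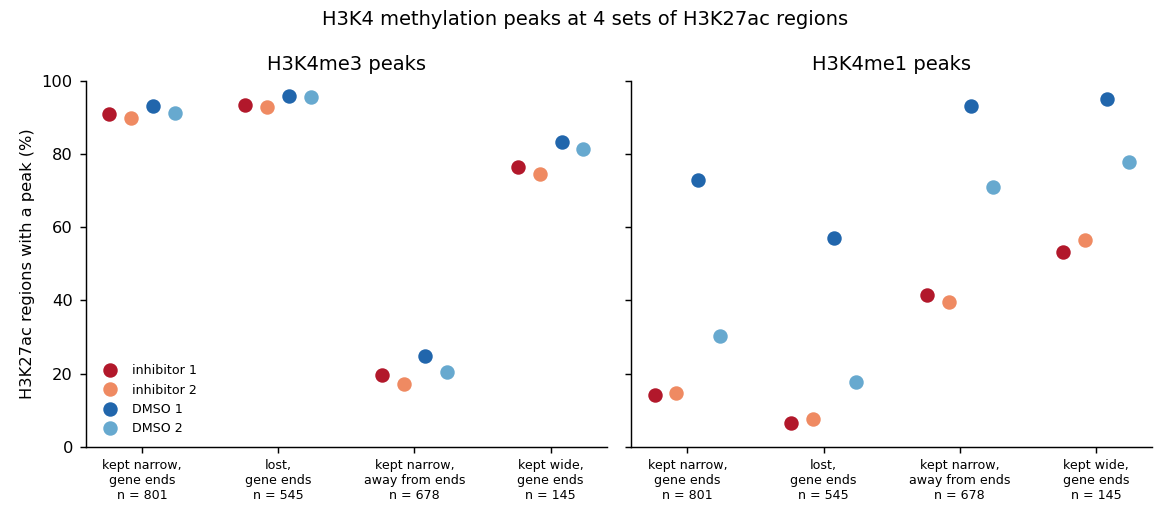
Percent of H3K27ac regions with an H3K4me3 peak (left) or an H3K4me1 peak (right) in 4 sets of regions, 1 point per library, inhibitor left of DMSO. Members are the first set. Members range from 89.9% to 93.3% for H3K4me3 and narrow regions away from gene ends from 17.1% to 24.9%, and the H3K4me1 points of DMSO replicate 1 lie highest in every set.

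The gene lists place the members among known pathways. They are read as counts, beside 1010 of all 19974 genes (5.06%), and genes that share a region cannot be told apart. Of 42 genes of RNA-binding and splicing factors, 18 had a member (42.9%), among them the splicing factors SRSF2, SRSF6 and SRSF9, the hnRNP proteins HNRNPD, HNRNPK, HNRNPM and HNRNPU, the RNA-binding protein EWSR1, and the helicases DDX5 and DDX17. Another 5 of the 42 were lost (11.9%), against 3.34% of all genes. The names EWSR1, DDX5 and DDX17 lie outside the naming rule and were named after their values were seen. H3K4me3 was shorter in both inhibitor libraries at all 18, with a median log2 difference of -0.27, against 77.1% and -0.22 over all members and 81.9% over all sites. TRA2B, a splicing regulator, had 3103 and 2557 bp of H3K4me3 with the inhibitor, against 4634 and 3645 bp with DMSO (-0.55). SRSF6 had 2996 and 2711 bp with the inhibitor, against 3090 and 3173 bp with DMSO (-0.14).

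Of 24 B-cell transcription factors, 3 had a member (12.5%) and 7 had only a kept region of 5000 bp or more (29.2%), against 163 of all 19974 genes with such a wide region (0.816%). POU2AF1, the B-cell coactivator of octamer factors, had 3843 and 3466 bp of H3K27ac with the inhibitor, against 4334 and 3614 bp with DMSO. SPIB, an ETS factor of B cells, had 3291 and 2489 bp of H3K4me3 with the inhibitor, against 4762 and 3968 bp with DMSO (-0.60). FOXP1, a forkhead factor of B cells, had 4461 and 3817 bp of H3K4me3 with the inhibitor, against 5297 and 5144 bp with DMSO (-0.34), and no H3K4me1 in any list. POU2AF1 had 2853 and 2779 bp of H3K4me3 with the inhibitor, against 3580 and 3249 bp with DMSO (-0.28). H3K4me3 was thus shorter in both inhibitor libraries at all 3. The same held for 77.1% of all members with a site in the 4 lists and for 81.9% of all sites. The H3K27ac groups overlapped at all 3.

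Of 45 genes of B-cell surface and receptor signalling, 8 had a member (17.8%) and 10 a kept wide region (22.2%). The 8 are CD72 (at its 3' end, shared with TESK1), CD79A, a signalling chain of the B-cell receptor, CD24, CD38, FCRLA, CCR7, BLNK and INPP5D, the lipid phosphatase SHIP1. At CD79A, H3K4me3 was present with 1215 bp in inhibitor replicate 1 and absent from inhibitor replicate 2, against 2590 and 2462 bp with DMSO. Its H3K27ac covered 2172 and 3011 bp with the inhibitor, against 3263 and 1813 bp with DMSO. FCRLA had 1892 and 1825 bp of H3K4me3 with the inhibitor, against 2895 and 2686 bp with DMSO (-0.59), and its DMSO H3K4me1 peaks of 7260 and 3196 bp had no counterpart with the inhibitor. Of the 5 regions of this list with H3K4me3 in all 4 lists, 2 were shorter in both inhibitor libraries, FCRLA and INPP5D. BLNK was longer, and the groups overlapped at CD24 and CD38. Over all members with a site in the 4 lists, 77.1% were shorter and 1.67% longer. None of 18 germinal centre and plasma cell genes had a member, while 3 had a kept wide region (16.7%) and 4 were lost (22.2%), against 668 of all 19974 genes lost (3.34%).

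Members of the NF-kB pathway covered subunits and inhibitors. Of 19 list genes, 6 had a member (31.6%). H3K4me3 was shorter in both inhibitor libraries at 5 of the 6 and longer at 1. Over all members with a site in the 4 lists these shares were 77.1% and 1.67%. The subunit REL had 3488 and 3040 bp of H3K4me3 with the inhibitor, against 3691 and 3489 bp with DMSO. RELA had 1339 and 1272 bp with the inhibitor, against 1704 and 1542 bp with DMSO. The subunit RELB had 1276 and 1415 bp with the inhibitor, against 2140 and 1453 bp with DMSO. All 3 were shorter in both inhibitor libraries, at RELB and REL by narrow margins, and the RELA region lay at its 3' end and was shared with SIPA1. Of the inhibitors, NFKBIA had 2385 and 2332 bp with the inhibitor, against 4180 and 3594 bp with DMSO (-0.72), TRAF3 a log2 difference of -0.59, and TNFAIP3, whose promoter is printed above, was the 1 longer site of the 6.

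Immediate early and stress genes numbered 10 of 41 (24.4%). JUNB, an AP-1 subunit that shares its region with HOOK2, had 3070 and 3266 bp of H3K4me3 with the inhibitor, against 5290 and 5208 bp with DMSO (-0.73). BTG1, an antiproliferative gene, had the shortest H3K27ac relative to DMSO of these 10, with 1066 and 1156 bp with the inhibitor, against 2989 and 2234 bp with DMSO, while its H3K4me3 of 8321 and 7346 bp with the inhibitor overlapped the 9567 and 8058 bp with DMSO. H3K4me3 was shorter in both inhibitor libraries at 5 of the 10 (JUNB, JUND, ZFP36, MCL1 and HSPA8) and longer at 0, against 77.1% and 1.67% of all members with a site in the 4 lists. The others were ZFP36L2, BTG2, KLF6 and TXNIP. H3K4me1 was in both DMSO lists and neither inhibitor list at 4 of the 10, namely ZFP36, ZFP36L2, BTG2 and TXNIP, against 113 of all 801 members (14.1%), a state that held 20 members in lists of equal length.

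Of 47 cell cycle and replication genes, 5 had a member (10.6%) and 15 were lost (31.9%), against 5.06% and 3.34% of all genes. The 5 were the CDK inhibitors CDKN2C (at its 3' end only) and CDKN2D, the restriction point genes E2F1 and RB1, and BUB1, a spindle checkpoint kinase. CDKN2D had 3676 and 3010 bp of H3K4me3 with the inhibitor, against 5535 and 5435 bp with DMSO (-0.72). RB1 had 2678 and 2980 bp with the inhibitor, against 2780 and 3042 bp with DMSO (-0.04), where the groups overlapped. The other 4 were shorter in both inhibitor libraries, against 77.1% of all members with a site in the 4 lists and 81.9% of all sites.

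Of 41 genes of acetyltransferases, coactivators and methyltransferases, 7 had a member (17.1%): EP300, KAT5, KAT7, KMT2D, KDM5A, EZH2 and ARID1A. Another 6 of the 41 were lost (14.6%), against 3.34% of all genes. EP300 had 1282 and 1785 bp of H3K27ac with the inhibitor, against 2569 and 1627 bp with DMSO, which overlapped. Its H3K4me3 was 3219 and 2960 bp long with the inhibitor, against 4321 and 3673 bp with DMSO (-0.37). KMT2D, an H3K4 methyltransferase, had 3320 and 3200 bp of H3K4me3 with the inhibitor, against 4436 and 4229 bp with DMSO (-0.41). H3K4me3 was shorter in both inhibitor libraries at 6 of the 7, against 77.1% of all members, and longer at KDM5A.

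The remaining lists were smaller. Histone genes had 7 of 40 in 4 regions, 0 of which had H3K4me1 in any list, and the H2AC6 and H2BC4 region had 4647 and 4412 bp of H3K4me3 with the inhibitor, against 4480 and 4310 bp with DMSO (0.04), where the groups overlapped. H3K4me3 was shorter in both inhibitor libraries at the other 3 histone regions, against 77.1% of all members with a site in the 4 lists. H1-2, a linker histone, had 2256 and 1408 bp of H3K4me3 with the inhibitor, against 2907 and 2633 bp with DMSO (-0.63). Ribosomal protein genes had 6 of 74 (RPL7, RPL10, RPL19, RPL27A, RPLP2 and RPS29), and p53 targets and apoptosis genes 5 of 26 (MDM2, BTG2, BCL2L1, BAK1 and MCL1). The BAK1 region lay at its 3' end only. MYC and EIF4E were 2 of 24 in the MYC list, and MYC had 6176 and 5317 bp of H3K4me3 with the inhibitor, against 6820 and 5349 bp with DMSO (-0.08), which overlapped. IRF2 was the 1 of 23 interferon response genes, with 2 regions. Lost genes were 10 of the 74 ribosomal protein genes (13.5%), 3 of 24 in the MYC list (12.5%) and 4 of 40 histone genes (10%). They were 2 of 23 interferon response genes (8.70%) and 2 of 26 p53 and apoptosis genes (7.69%), against 3.34% of all genes. The lists of T and NK cell, myeloid, and epithelial and stromal markers had 0 of 22, 0 of 16 and 0 of 16.

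**Figure D5:**
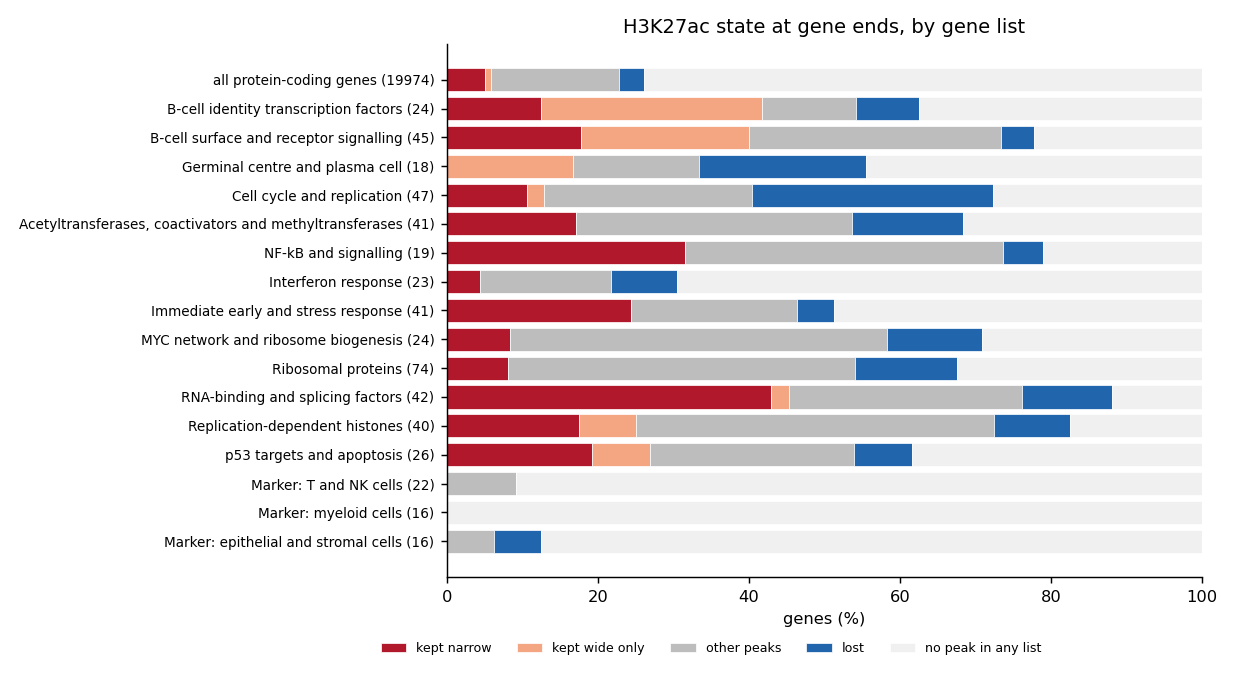
Percent of the genes in each list (list size in brackets) by the H3K27ac state at their ends: a kept narrow member, a kept wide region only, other peaks, lost, or no peak in any list. RNA-binding and splicing factors have 18 of 42 genes in the kept narrow state, B-cell transcription factors 7 of 24 in the kept wide state, and cell cycle genes 15 of 47 in the lost state.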

How the data were processed

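Peaks of H3K27ac, H3K4me3 and H3K4me1 were compared in 12 libraries, 2 per mark and treatment. The submitters' processing notes name the aligner Bowtie 1.1.2, the peak caller MACS 1.4.2 and the build hg38. They give no peak threshold and no role of the inputs. The authors deposited 1 list of peak coordinates per library, with 3 columns and no score, so presence and length in bp were compared and depth could not be judged. Only peaks on chromosomes 1 to 22 and X were kept, and the list sizes given count these peaks. Lists were merged into regions, and gene ends came from the protein-coding genes of the RefSeq table (GRCh38.p14). H3K4me3 length at a member is that of all peaks in the merged H3K4me3 sites that touch it. H3K4me1 length is that of each library's own peaks that overlap it, so the marks were measured differently. Start sites and promoters came from a RefSeq table of that build with starts for 15812 genes. That table listed no start on chromosome 8, so members there count among those whose start was not listed.

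The members, gene lists and motifs were chosen with earlier results of these data known. Named genes were the members of longest and shortest H3K27ac, of largest and smallest H3K4me3 change, those without H3K4me3 or with H3K4me3 in DMSO only, those with H3K4me1 lost or in every list, up to 10 members per gene list, and regions next to the width limit. Between treatments, values per library entered an exact two-sided permutation test, and between sets of regions by an exact sign-flip permutation test over the 4 libraries. A site was called shorter when both inhibitor lengths lay below both DMSO lengths. The alternatives changed the gene-end window, the width limit, the merging, the overlap and the lists, and left out each library in turn. The steps were tested on simulated data, in which 586 of 586 planted members were recovered. The planted H3K27ac peaks lay at well separated genes and had nearly equal widths in each list that held them. The recovery therefore checks the steps and says nothing about uneven lists or missed peaks. Python 3.11.15, numpy 2.4.6 and pandas 2.3.3 were used. Some genes that lie at members are counted in the totals but not reported here by name.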

Additional observations from a re-analysis of the deposited data

How the results depend on the processing

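The lists carry no peak heights, and depth was not matched between libraries. With 2 libraries a group no permutation test between treatments reaches 0.05. Lists of equal length, the window of fixed size, the counts by mark under each setting and the named H3K4me3 differences without each library were chosen after seeing the data. Of 116 differences recomputed under the alternatives, 100 kept their sign and stayed within 1.5 times of the value reported, 15 kept their sign but moved by over 1.5 times and 1 changed sign. The 15 were H3K4me3 and H3K4me1 shares, given beside the results. Of 68 counts, 13 moved by over 1.5 times. The 80 H3K4me3 differences of named members kept their direction when a library was left out. These members were picked by this same difference. Where the groups do not overlap, leaving out 1 library cannot turn the sign, so no stability is read from this.

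Members numbered 773 with a window of 1 kb, 854 with 5 kb, 713 with start sites only, 544 under 3000 bp, 921 under 10000 bp, 781 when peaks within 500 bp were merged, 592 in lists of equal length and 269 in the widest 0.5 of each list. Without 1 H3K27ac library they numbered 803 to 1081. The H3K4me3 share of members minus lost regions turned to 2.01 under 3000 bp, and the cause was not tested. Members with H3K4me1 in every list numbered 40 with start sites only, 23 under 3000 bp, 116 under 10000 bp, 27 in the widest 0.5 and 32 when 0.5 of the region had to be covered. Members with H3K4me1 in both DMSO lists only numbered 64 under 3000 bp and 34 in the widest 0.5. They numbered 40 with 0.5 of the region covered and 20 in lists of equal length. With 1 H3K4me1 library left out and the 801 members unchanged, they numbered 115 to 430. In the widest 0.5 of each list, which holds fewer members by construction, 143 had shorter H3K4me3 in both inhibitor libraries and 204 had H3K4me3 in every list.

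Replicate numbers are shared between the groups but nothing in the labels says that they pair the libraries. Deviations of same-numbered libraries correlated at 0.115 for H3K4me3 length over 719 members and at 0.06 for H3K27ac length over 801, with 2 pairs only. With the replicate number as a block the differences stayed at -1.81 and -37.1 percentage points for the H3K4me3 and H3K4me1 shares and at -0.25 and 0.04 (log2) for H3K4me3 length, with an exact sign-flip permutation p of 0.5, the smallest that 2 pairs can give.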

Other observations

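Members lay on each of chromosomes 1 to 22 and X, the only ones kept. The share of protein-coding genes with a member ranged from 1.94% on chromosome 15 (12 of 617 genes) to 7.53% on chromosome 21 (18 of 239 genes), with 5.06% over all chromosomes. On chromosome X it was 4.25% (36 of 848 genes), and 1 stretch there held 2 members beside each other at SASH3. The second SASH3 member had 1440 and 2034 bp of H3K27ac with the inhibitor, against 2001 and 1438 bp with DMSO. It had H3K4me1 peaks of 13250 and 6705 bp with DMSO and none with the inhibitor, and an H3K4me3 peak of 1088 bp in DMSO replicate 1 only.

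H3K4me1 had no peak in any list at 209 of the 718 members with H3K4me3 in all 4 lists (29.1%), and at 0 of the 54 members without H3K4me3. Of those 54, 26 had H3K4me1 in all 4 lists (48.1%), against 28 of 718 (3.90%) where H3K4me3 was in all 4. The members without H3K4me3 had a median mean H3K27ac length of 2789 bp, against 1861 bp where H3K4me3 was in all 4 lists.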
